A study of Zea mays with 64 samples.

Results

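Family NE73 comprised 7 maize kernels of the inbred line W22, numbered 1, 2, 3, 4, 7, 8 and 9, that shared the Mu-active father D67-40. Its 15 libraries, out of 64 in the series, were chosen by family name in the labels: 7 from leaf, 7 from endosperm of the same kernels, and 1 from endosperm of the father. The progeny came from bulked Mu-active pollen on Mu-inactive ears, and the father had arisen from a cross of the same kind, so the ear parent of every plant was Mu-inactive. Each kernel was chipped for its endosperm, and the leaf was taken from the seedling 10 to 13 days after sowing. Leaf DNA came from a column kit whereas endosperm DNA was prepared by a modified CTAB procedure. Tissue and DNA preparation therefore cannot be told apart in any comparison below. The father was sampled once and from endosperm only, and both parents and all progeny share the W22 background.

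Mu elements are maize DNA transposons that duplicate a short stretch of target sequence when they insert. An insertion made in the father's germ line can enter pollen. The paired sperm of a pollen grain, normally genetically identical, fertilise the egg and the central cell. The embryo, which gives the leaf, is diploid. The endosperm is triploid and carries a double maternal contribution. An insertion that both sperm carry is therefore expected in the cells of both tissues. An insertion made during the growth of one tissue is found only in the cells that descend from that event. An insertion present in a single sperm would also be found in a single tissue.

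Each library was read as counts at insertion sites, and CPM gives such a count per 1000000 counts of its library. Leaf libraries held 38627, 138879 and 338457 counts at the lowest, median and highest, against 9096, 38058 and 87730 in endosperm libraries. The father's library held 393329. The leaf-to-endosperm ratio of totals was between 0.806 and 37.2, and the endosperm library was the deeper one in plants 2 and 4. Presence required at least 10 reads and at least 100 CPM, where a read is 1 unit of the deposited count. In plant 7 the endosperm library of 9096 counts raised that minimum to 1099 CPM. Positions are given as deposited, and their genome build is not given in the sources used here.

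The first comparison asked which paternal insertions each kernel received, and whether its leaf and endosperm received the same ones. The authors' deposited list assigns 80 insertions to the father. The Mu-inactive parent shares 29 of these, and the other 51 are called paternal here. The 51 lay on all 10 chromosomes, from 2 on chromosome 8 to 16 on chromosome 3, and 49 of them span 9 bp with both ends counted. In the list, 19 belong to no other father of the series, 31 to 1 or 2 other fathers, and 1, on chromosome 9 from 11958559 to 11958567, to all of them.

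Leaf and endosperm of a kernel carried the same paternal insertions without exception. Of 357 combinations of insertion and plant, 205 were positive in leaf and 205 in endosperm, 0 differed between the tissues, and 0 differed from the authors' list. Carried insertions were at 1668, 8511 and 16327 CPM in leaf (lowest, median and highest) and at 2812, 8201 and 13846 CPM in endosperm. In the 152 combinations called absent, 11 had any count in leaf, with at most 6 counts or 35.7 CPM. In endosperm 6 had any count, with at most 2 counts or 69.0 CPM. Present and absent insertions were thus separated by a wide gap in both tissues, which the heat map of CPM by library shows. These sites were taken from the authors' list, whose criteria are not given in the sources used here. Whether listing required both tissues was not tested, so the 0 differences may be fixed in part by the list.

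**Figure D1:**
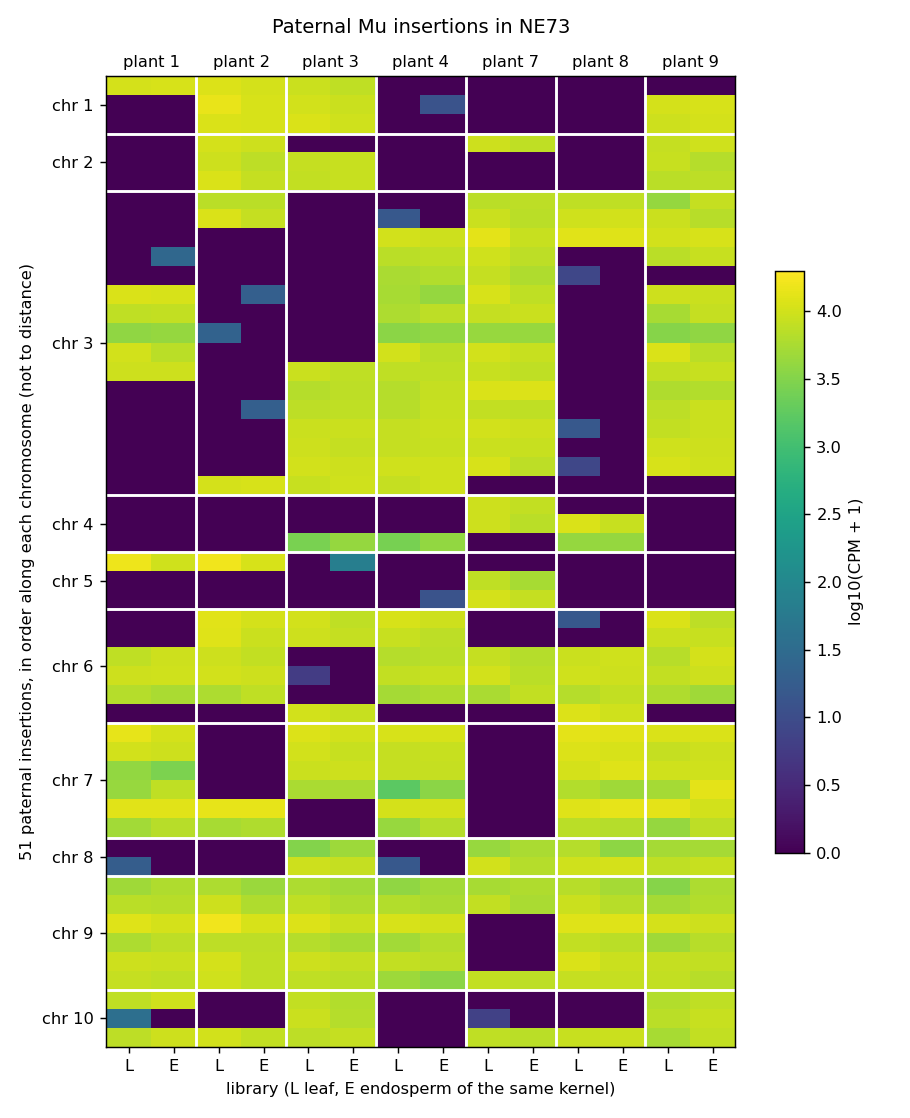
CPM of the 51 paternal insertions (one per line of the map, in chromosome order from top to bottom, not to distance) in the 14 progeny libraries, on a log10(CPM + 1) colour scale. For each plant leaf (L) stands left of endosperm (E). Both tissues of a plant show the same blocks of carried and missing insertions, and on chromosome 9 every plant except plant 7 carries all 6.

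The number of paternal insertions carried was 24, 24, 31, 32, 29, 24 and 41 in plants 1, 2, 3, 4, 7, 8 and 9. Together this is 57.4% of the combinations (Wilson 95% confidence interval 52.2 to 62.4%, counting error only). Because linked insertions travel together, the plant was taken as the unit of the test. The mean share exceeded 50% by 7.42 percentage points, with 4 plants above and 3 below, and this did not pass an exact two-sided sign-flip permutation test (p = 0.141, adjusted p = 0.141). Plant 9, at 80.4%, raised the mean: without it the excess was 3.59 points. The authors name their list as one of transmitted insertions, and every paternal insertion in it reached at least 1 kernel. The father's library had 97 insertions present, more than the list gives him. Leaving out paternal insertions that reached no kernel would raise the share. Whether the list leaves out such insertions was not tested.

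The share passed on took values from 19.0% to 92.9% over the chromosomes. On chromosome 9, 39 of 42 combinations were positive, or 92.9%, and 6 plants carried all 6 insertions. The 3 insertions that reached all 7 kernels are all on this chromosome, starting at 11958559, 20420229 and 130659623. Plant 7 lacked the 3 that lie between the last pair, which start at 26189098, 37726741 and 108767432, and so carried both ends without the middle. Of these 6, those starting at 11958559 and 37726741 lie beside no change and were chosen after their values were seen. At the other extreme, chromosome 5 passed on 4 of 21 combinations, or 19.0%, and 4 plants received none of its 3 insertions. Chromosome 4 passed on 28.6%, again with no plant that carried all 3. Chromosomes 1 and 2 each passed on 42.9%, chromosome 10 passed on 52.4%, chromosome 3 54.5%, chromosome 8 57.1%, chromosome 6 66.7% and chromosome 7 71.4%. With 7 kernels and 1 father these shares are a description of the listed insertions in this family, and they were not tested by chromosome.

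Many chromosomes showed no change of state between their insertions. Of 70 pairs of chromosome and plant, 20 carried every paternal insertion of the chromosome, 18 carried none and 32 carried some. The insertions can cover only part of a chromosome: the 3 of chromosome 4 span 17.7 Mb, and the 3 of chromosome 5 span 60.2 Mb. Chromosome 8 was never mixed: plants 3, 7, 8 and 9 carried both of its insertions, which are 43.3 Mb apart, and plants 1, 2 and 4 carried neither. On chromosome 7, plants 1, 4, 8 and 9 carried all 6 and plant 7 carried none, although one interval there, from 44742689 to 141282626, spans 96.5 Mb. That was the widest interval without a change in any plant, and it was chosen for this after its values were seen. In contrast, chromosomes 3 and 6 were mixed in all 7 plants.

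Changes of state between neighbouring insertions were then counted along each chromosome. Such a change marks where a crossover in the father would lie if both neighbours came to him on the same homologue, which the cross makes likely for inherited insertions but which was not measured. There were 41 changes in 287 chances (41 intervals in 7 plants), and the same 41 were found from endosperm counts and from the authors' list. Per plant the numbers were 8, 6, 6, 3, 9, 4 and 5 in plants 1, 2, 3, 4, 7, 8 and 9. Of the 70 pairs of chromosome and plant, 38 had no change, 24 had 1, 7 had 2 and 1 had 3. The changes fell in 19 of the 41 intervals. Intervals of 10 Mb or more held 28 changes in 12 of 20 intervals, and shorter ones held 13 in 7 of 21.

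Chromosome 3, with 16 insertions over 201 Mb, shows these blocks in most detail. Plant 8 carried the first 3 insertions and none after the interval from 3350338 to 12900562. Plant 3 carried the last 7, with its change between 144932484 and 163187734. Plant 1 carried a block of 5, entered between 23873614 and 39584704 and left between 163187742 and 166753668. Plant 2 carried the first 2 and the last. Plant 4 carried all but the first 2, with its change between 1303754 and 3350330, at 2.05 Mb the narrowest interval in which a change occurred. Plant 2 changed in that interval too. Plant 7 carried all but the last. Plant 9 lacked the last one and also the single insertion from 23873606 to 23873614, which had 0 counts in its leaf and 0 in its endosperm while both neighbours were present. Among the pairs of chromosome and plant, this is the 1 with 3 changes.

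In 3 intervals more than 3 of the 7 plants changed state. The insertion on chromosome 6 from 159702285 to 159702293 was carried by plants 3 and 8, at 10007 and 11917 CPM in leaf and 8835 and 9610 CPM in endosperm, and had 0 counts in both tissues of the other 5. Its nearest neighbour, from 100192533 to 100192541, was carried by every plant except plant 3, so 6 plants changed over these 59.5 Mb and plant 8 alone did not. Earlier on chromosome 6, plants 1, 3, 7 and 8 changed between 90428455 and 94323134, an interval of 3.89 Mb. On chromosome 10, plants 1, 2, 7 and 8 changed between 83076011 and 139605597, an interval of 56.5 Mb. Without these intervals 27 changes remained. Whether the neighbours in these intervals lay on the same homologue of the father was not tested.

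Most paternal insertions stood at a similar relative level in every kernel that had them, with a few exceptions. Each level was divided by the plant's median paternal insertion in the same library and set against the other carriers, in 192 combinations with enough carriers. In leaf, 2 combinations were under 0.5 of the other carriers and 1 was over 1.5. In endosperm, 1 was under 0.5 and 2 were over 1.5. Both low combinations lie in a pair of insertions 35.4 kb apart on chromosome 7. The one from 141282626 to 141282634 had 680 leaf and 107 endosperm counts in plant 1, which is 0.443 of the level of the other carriers in leaf and 0.270 in endosperm. The one from 141317990 to 141317998 had 118 leaf and 310 endosperm counts in plant 4, at 0.340 of the level of the other carriers in leaf and 0.601 in endosperm. The same insertion stood at 2.45 times the other carriers in the endosperm of plant 9 (284 counts) and at 1.12 times in its leaf (204 counts). The remaining high one was in plant 7 on chromosome 3 from 166753668 to 166753676, at 1.62 times the other carriers in leaf (3867 counts) and 1.76 times in endosperm (107 counts). These combinations were chosen after their values were seen.

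The next comparison asked how high paternal insertions stood relative to insertions that both parents carry, since the share of paternal genomes differs between embryo and endosperm. Paternal insertions stood at about 0.5 of the level of shared ones in leaf and lower in endosperm. The ratio of the median paternal level to the median level of the 29 insertions shared with the Mu-inactive parent was 0.513 ± 0.0533 in leaf and 0.361 ± 0.0336 in endosperm (SD, n = 7 each). Leaf ratios were between 0.451 and 0.580 and endosperm ratios between 0.334 and 0.421, without overlap. On the log2(CPM + 1) scale the difference between the classes averaged -0.97 in leaf and -1.47 in endosperm. The leaf value exceeded the endosperm value by 0.50 ± 0.24 (SD) and did so in 7 of 7 plants (exact sign-flip permutation, two-sided, p = 0.0156, which is the smallest that 7 plants can give, adjusted p = 0.0182).

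**Figure D2:**
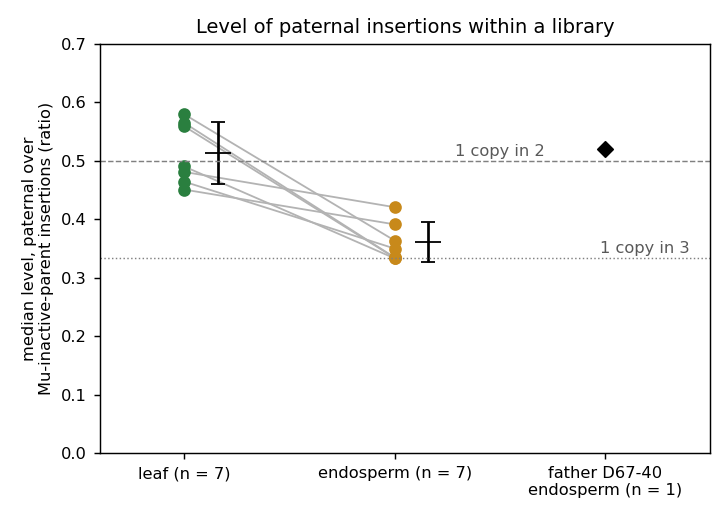
Ratio of the median level of paternal insertions to that of insertions shared with the Mu-inactive parent, per library; grey lines join leaf and endosperm of a kernel, and bars give mean and SD (n = 7). Leaf ratios (0.451 to 0.580) and endosperm ratios (0.334 to 0.421) do not overlap, and the single library of the father stands at 0.521; dashed and dotted lines mark 1 copy in 2 and 1 copy in 3.

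Simple copy arithmetic, with the shared insertions homozygous in both parents and all sites amplified alike, gives -1 for leaf, -1.58 for endosperm and 0.58 for their difference. The measured levels depend on which shared insertions are used, and 19 of the 29 are 100 bp or wider, up to 7196 bp. With the other 10 alone, chosen as an alternative after the data were seen, per-plant differences were between -0.78 and -0.43 in leaf and between -1.25 and -0.81 in endosperm. Leaf still exceeded endosperm in 7 of 7 plants, by 0.45 on average (exact p = 0.0156). The father's endosperm library had a ratio of 0.521, inside the leaf range of his progeny rather than their endosperm range. It is a single library, so it has no replicate error. The same leaf and endosperm ratios averaged 0.484 and 0.329 in NE71, 0.522 and 0.319 in NE72, and 0.555 and 0.349 in NE74. The endosperm libraries of the fathers of NE71, NE72 and NE74 had ratios of 0.915, 0.519 and 0.668, which like that of D67-40 lie above the endosperm range of their progeny.

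The same contrast was followed site by site with a test across all sites that passed a filter. edgeR's quasi-likelihood test, with the plant as block, covered 82 sites with 10 or more reads in at least 3 of the 14 libraries: 48 of the 51 paternal insertions, all 29 shared ones, 1 new insertion and 4 sites outside the list. It called 28 sites (34.1%) at a Benjamini-Hochberg adjusted p of 0.05 or less, 15 higher in leaf (18.3%) and 13 lower in leaf (15.9%). Of the 48 paternal insertions, 14 were higher in leaf and 0 lower, and of the 29 shared insertions 1 was higher and 11 lower. The median log2 ratio of leaf to endosperm was 0.35 over the paternal insertions, -0.13 over the shared ones and 0.17 over all 82. A site with 10 or more reads in 1 plant only could not pass the filter. Private sites and nearly all new insertions were therefore not tested. The 1 new insertion passed because another NE73 library had 10 counts there.

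The direction of single calls depends on the scaling, whereas the distance between the classes does so less. Under TMM, edgeR's trimmed-mean scaling, 53.6% of the calls were higher in leaf and 46.4% lower. With library totals in place of TMM the split was 12% higher and 88% lower (25 calls), and with DESeq2 it was 73.3% higher and 26.7% lower (30 calls). Under library totals the median of all sites moved to -0.11, only 3 paternal insertions were called higher, and 21 shared ones were called lower. The paternal median exceeded the shared median by 0.48 with TMM, 0.47 with library totals and 0.38 with DESeq2. Without plants 3, 4 or 7 the number of calls was 18, 13 and 18 in that order, and without the plant as block it was 8.

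**Figure D3:**
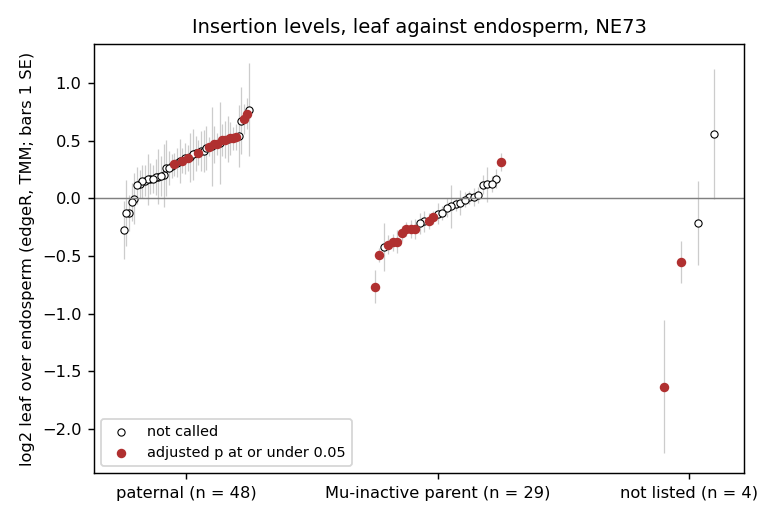
Log2 ratio of leaf to endosperm (edgeR, TMM; bars 1 SE) for the tested paternal insertions, insertions shared with the Mu-inactive parent and unlisted sites; the 1 tested new insertion is not drawn. Filled points have an adjusted p of 0.05 or less: 14 paternal insertions lie above 0, and 11 shared ones lie below 0 and 1 above.

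Among sites higher in leaf, the 5 with the lowest p were all paternal. On chromosome 9 these were the insertions starting at 26189098, with 10501 CPM in leaf against 8819 in endosperm (log2 0.52 ± 0.10 SE), at 108767432, with 8159 against 7099 CPM (0.48 ± 0.09), and at 130659623, with 7829 against 7023 CPM (0.45 ± 0.08). The other members of this set start at 144932476 on chromosome 3, with 5984 against 4338 CPM (0.74 ± 0.13), and at 84266222 on chromosome 6, with 6514 against 5006 CPM (0.69 ± 0.13). Each had an adjusted p of 0.00324 by edgeR. The CPM here are means over all 7 plants, carriers or not. Among sites lower in leaf, the 5 with the lowest p were all shared insertions. The lowest p belonged to chromosome 2 from 47365707 to 47365715, with 14757 CPM in leaf against 25107 in endosperm (-0.49 ± 0.06, adjusted p = 0.000138 by edgeR). The widest difference of the set was on chromosome 10 from 133146086 to 133147581, with 12298 against 24645 CPM (-0.77 ± 0.14, adjusted p = 0.00324 by edgeR). The remaining members lie on chromosome 2 from 142959280 to 142961386 (-0.38), chromosome 3 from 175620033 to 175621592 (-0.40) and chromosome 3 from 241129912 to 241133491 (-0.30).

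New insertions were those that the list gives to a progeny plant and not to the father. Family NE73 had 81 of them, and each was listed for 1 plant only. Plants 1, 2, 3, 4, 7, 8 and 9 had 14, 7, 17, 17, 16, 3 and 7. The father's library had 0 counts at 79 of the 81 and at most 2 counts elsewhere, and 61 had 0 counts in every other NE73 progeny library. In other families 42 had 0 counts, and the highest count there was 47, at chromosome 3 from 3578694 to 3578702. As among paternal insertions, the 9 bp span dominated, at 79 of 81. When sites within 10 bp in a plant were merged, 76 loci remained.

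Nearly every listed new insertion was present in both leaf and endosperm, 80 of the 81, and most stood near the level of an inherited one. The list calls plants and not tissues, and its criteria are not given in the sources used here. Whether listing required both tissues or a high level was not tested, so these values describe listed insertions only. Relative to the median paternal insertion of the same library, the median new locus stood at 0.939 in leaf and 0.910 in endosperm. Of the 76 loci, 57 lay between 0.5 and 1.5 in both tissues, 14 lay under 0.5 in leaf, 13 under 0.5 in endosperm and 11 under 0.5 in both, and 72 agreed within 2-fold between them. Plant medians were between 0.663 and 1.10 in leaf and between 0.566 and 1.15 in endosperm, and plant 9 was the lowest in both.

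**Figure D4:**
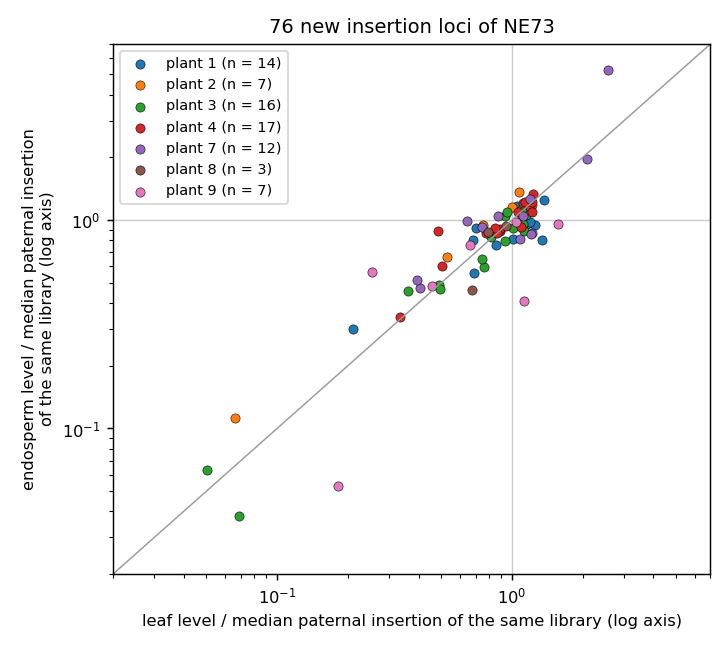
Each point is 1 of the 76 new loci, coloured by plant, with its level relative to the median paternal insertion in leaf (x axis) and endosperm (y axis), both on log axes. Most points lie near 1 on both axes, and 4 lie under 0.25 in both. The highest, in plant 7, is merged from 5 sites and stands at 2.56 in leaf and 5.26 in endosperm.

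The highest new insertion of each plant by leaf CPM is described next. Being picked for a high leaf level, these do not stand for the other new insertions, and the pick favours leaf over endosperm. In plant 1 it lay on chromosome 10 from 12139348 to 12139356, with 1866 leaf counts (11110 CPM) and 434 endosperm counts (11404 CPM). Plant 2 had one on chromosome 10 from 125294138 to 125294146, with 12857 CPM in leaf and 9857 in endosperm. The one of plant 3 lay on chromosome 1 from 213183786 to 213183794, with 10293 and 8731 CPM in leaf and endosperm. In each of these plants the insertion was at 1.06 to 1.36 times the median paternal level in both tissues. Plant 4 had 9232 CPM in leaf and 10179 in endosperm on chromosome 2 from 233235877 to 233235885. Plant 8, with 3 new insertions, had 8864 CPM in leaf and 8482 in endosperm on chromosome 1 from 54997601 to 54997609. Plant 7 stood apart with 18833 CPM in leaf and 14732 in endosperm on chromosome 5 from 878129 to 878137, which is 2.08 and 1.97 times the median paternal level. Plant 9 had 12608 CPM in leaf but 8339 in endosperm on chromosome 1 from 81229601 to 81229609, at 1.58 and 0.958. The father had 0 counts at all 7.

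A few new loci stood low in both tissues. Under 0.25 of the median paternal level in leaf and in endosperm were 4 loci, named here after their values were seen. On chromosome 3 from 230268429 to 230268437, plant 3 had 125 leaf counts (0.0686) and 9 endosperm counts (0.0378), and this is the 1 listed new insertion that missed the presence minimum in endosperm. On chromosome 8 from 106275444 to 106275452, plant 3 had 92 leaf counts (0.0505) and 15 endosperm counts (0.0630). On chromosome 5 from 11257372 to 11257380, plant 9 had 56 leaf counts (0.181) and 10 endosperm counts (0.0529). On chromosome 10 from 2214040 to 2214048, plant 2 had 32 leaf counts (0.0660) and 49 endosperm counts (0.112), while another NE73 library had up to 10 counts. All 4 are well under the level of inherited insertions, and they rest on 9 to 125 counts a library.

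Other new loci, also named after their values were seen, were unusual in structure. In plant 7, 5 listed sites on chromosome 4 lie at steps of 2 bp between 250673708 and 250673724 and together hold 7840 leaf counts and 358 endosperm counts, at 2.56 and 5.26 times the median paternal level. The father had 1 count at these sites. Counts in this group of sites occurred in 30 libraries of the series, those of plant 7 included. The group extends beyond the listed sites, from 250673694 to 250673754, and unlisted sites in it had counts in up to 20 libraries each. At the one from 250673734 to 250673742, plant 7 had 0 counts in both tissues and the father had 2. In plant 3, sites from 1023665 to 1023677 and from 1023671 to 1023679 on chromosome 5 overlap. The first has 2012 leaf and 194 endosperm counts, and the second has 44 leaf and 17 endosperm counts.

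One new insertion lies next to a paternal one. On chromosome 9 from 130659550 to 130659558, plant 4 had 578 leaf counts (8171 CPM) and 620 endosperm counts (7067 CPM), and the father had 2 counts. The paternal insertion from 130659623 to 130659631, starting 73 bp further on, is one of the 3 carried by all kernels. In plant 4 it had 4679 CPM in leaf, against 7770 to 9779 CPM in the other 6 leaves. In endosperm plant 4 had 3636 CPM, against 6957 to 8268 CPM in the other 6. Plant 4 was thus the lowest of 7 in both tissues at this site. The pair was chosen after its values were seen, and the new site could not be compared between plants. Whether the proximity of the new insertion bears on the counts of the paternal one was not tested.

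New insertions were spread over all chromosomes, from 4 loci each on chromosomes 6 and 7 to 12 on chromosome 4. Of the 81, 56 (69.1%) lay in the outer 20% at either end of a chromosome's span of sites, against 45.1% of the 51 paternal and 44.8% of the 29 shared insertions. Unlisted sites counted in leaf were there in 60.4% of cases and those in endosperm in 60.0%. The 81 were not merged here, so the 5 close sites of plant 7 on chromosome 4 and the 2 overlapping sites of plant 3 on chromosome 5 were each counted separately. All of these lie in the outer part, which raises the share of new insertions. These shares were not tested. Only 5 new insertions lay within 1 Mb of a paternal insertion carried by the same plant, and the median distance to the nearest paternal insertion was 16.6 Mb.

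The level of new insertions relative to paternal ones depended on how new insertions were defined. Taking every site present in both tissues and not listed for the father, new insertions stood lower than paternal ones by 0.74 in leaf and 0.59 in endosperm on the log2(CPM + 1) scale (differences of -0.74 and -0.59). Each was negative in 7 of 7 plants (exact two-sided sign-flip permutation p = 0.0156, adjusted p = 0.0182). That set includes 26 calls at 4 sites that the list leaves out and that have counts in 63 or 64 of the 64 libraries, the father's among them. With the listed new insertions alone, an alternative added after the data were seen, the differences were -0.22 in leaf (5 of 7 plants negative, exact p = 0.0625) and -0.21 in endosperm (6 of 7 negative, exact p = 0.125), and neither passed 0.05.

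The 4 recurrent sites, named after their values were seen, lie on chromosome 1 from 18957402 to 18957410, chromosome 2 from 78235838 to 78240609, chromosome 8 from 44857168 to 44858977 and chromosome 8 from 160333759 to 160333767. The site on chromosome 1 averaged 1079 ± 754 CPM in leaf and 4122 ± 3147 CPM in endosperm (SD, n = 7 each). It was lower in leaf by edgeR (log2 -1.64 ± 0.58 SE, adjusted p = 0.0447). The second site of chromosome 8 averaged 1326 ± 383 CPM in leaf and 2295 ± 161 CPM in endosperm and was lower in leaf as well (-0.55 ± 0.18, adjusted p = 0.0402 by edgeR). The father's library had 773 CPM at the site on chromosome 1 and 325 CPM at that on chromosome 8.

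Family NE73 had fewer new insertions a plant than NE72 and NE74. Counted were those present in both tissues of 1 plant and no other, with 0 counts in the father. NE73 plants had 3, 14 and 16 at the lowest, median and highest, against 7, 18 and 28 in NE71, 25, 40 and 52 in NE72, and 18, 32 and 44 in NE74. The means were 10.9 ± 5.34 in NE73 (SD, n = 7), 17.6 ± 7.46 in NE71 (n = 8), 39 ± 11.3 in NE72 (n = 7) and 31 ± 7.76 in NE74 (n = 8). NE73 was lower than NE72, with a difference of -28.1 insertions a plant, and lower than NE74, with a difference of -20.1 (exact two-sided permutation, adjusted p = 0.000874 for both). The difference from NE71, -6.77, did not pass the same exact test (adjusted p = 0.0740). In the authors' list, siblings shared 0 of 81 new insertions in NE73, 3 of 149 in NE71, 36 of 345 in NE72 and 5 of 286 in NE74. Each family has 1 father, so family and father cannot be told apart.

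The remaining question was what each tissue held beyond the insertions found in both. Leaf had far more sites at low level than endosperm of the same kernel. Sites outside the authors' list took 14.8%, 18.4% and 21.3% of the leaf counts at the lowest, median and highest, against 2.72%, 4.23% and 5.20% of the endosperm counts. The groups do not overlap, and the difference averaged 14.6 percentage points, positive in 7 of 7 plants (exact two-sided sign-flip permutation p = 0.0156, adjusted p = 0.0182). Sites with a single read made up 11.7% of leaf and 2.62% of endosperm counts on average. The father's endosperm library, the deepest of the family, had 5.07% of its counts outside the list. At the median over plants, shared insertions took 48.9% of leaf and 62.1% of endosperm counts, paternal ones 25.3% of leaf and 21.7% of endosperm counts, and listed new ones 10.8% of leaf and 9.43% of endosperm counts.

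Leaf also had more sites where its library was not the deeper one. In plants 2 and 4 the endosperm library was deeper, yet leaf had 6886 distinct sites against 956 in plant 2, and 10918 against 1907 in plant 4. After the deeper library of each kernel had been sampled to the total of the shallower, leaf averaged 6246 ± 3553 sites and endosperm 1193 ± 858 (SD, n = 7 each).

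**Figure D5:**
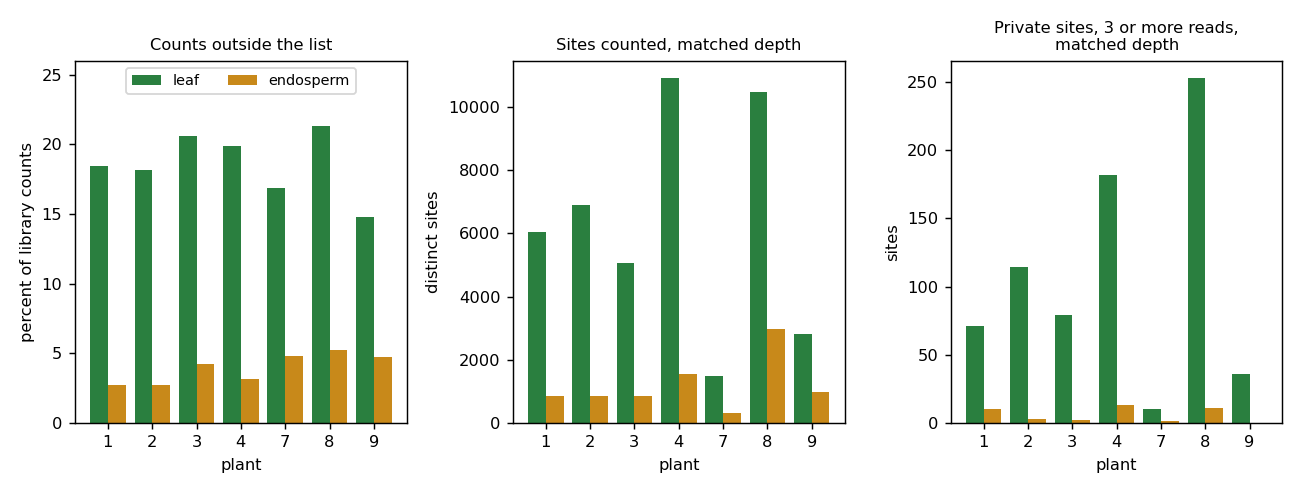
For each plant, leaf (left bar) and endosperm (right bar): percent of counts outside the authors' list, distinct sites counted at matched depth, and sites private to 1 library with 3 or more reads at matched depth. Leaf exceeds endosperm in every plant in all 3 panels; single libraries carry no error bar.

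Private sites were then counted, meaning 3 or more reads in one tissue and 0 counts in the other tissue, the father and every other plant of the series. Sites that overlap another insertion of the same plant were not set aside. At matched depth leaf had 71, 114, 79, 182, 10, 253 and 36 in plants 1, 2, 3, 4, 7, 8 and 9, against 10, 3, 2, 13, 1, 11 and 0 in endosperm. Leaf was higher in 7 of 7 plants by 100.7 ± 81.1 sites (SD, exact two-sided sign-flip permutation p = 0.0156, adjusted p = 0.0182). With 10 or more reads required the difference was 13.3 sites and the exact p 0.0625. With all counts there were 3119 private leaf sites and 45 private endosperm sites. Of the leaf sites 4 reached 10% of the median paternal level and 1 reached 25%, whereas 0 endosperm sites reached 10%.

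The private leaf site with the highest CPM in each plant shows how low these levels were. In plant 8 it lay on chromosome 7 from 119610042 to 119610050, with 742 leaf counts, 5343 CPM or 0.568 of the median paternal level, and 0 of 70030 endosperm counts, which allows up to 42.8 CPM there. That leaf level is of the order of an inherited insertion. Whether this site arose during growth of the plant or came with the pollen was not tested. The next, in plant 2, was on chromosome 9 from 119336241 to 119336249, with 82 leaf counts or 0.169 of the median paternal level. In the other 5 plants the highest private leaf site stood between 0.0475 and 0.0942. These were on chromosome 5 from 125615402 to 125615410 in plant 1 (65 counts), chromosome 6 from 161412080 to 161412088 in plant 3 (103 counts), chromosome 1 from 53271800 to 53271808 in plant 4 (50 counts), chromosome 4 from 232826038 to 232826046 in plant 7 (179 counts) and chromosome 10 from 9867720 to 9867728 in plant 9 (15 counts).

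Private endosperm sites were few and low. By level the highest was in plant 7 on chromosome 3 from 648919 to 648927, at 330 CPM or 0.0441 of the median paternal level, but it rested on 3 counts in the shallowest library. By counts the highest was in plant 2 on chromosome 4 from 208087527 to 208087535, with 17 endosperm counts, 326 CPM or 0.0389 of the median paternal level, and 0 of 45813 leaf counts, which allows up to 65.5 CPM. The highest of the other plants rested on 6 to 8 counts: chromosome 1 from 293166577 to 293166585 in plant 1, chromosome 2 from 144737558 to 144737566 in plant 3, chromosome 1 from 264574281 to 264574289 in plant 4 and chromosome 10 from 43933248 to 43933256 in plant 8. Plant 9 had none. Because 3 counts amount to 34.2 to 330 CPM in an endosperm library and 8.86 to 77.7 CPM in a leaf library, rarer endosperm sites were not detectable at this depth.

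At the presence minimum, leaf-only sites numbered 64, 28, 87, 70, 57, 111 and 7 in plants 1, 2, 3, 4, 7, 8 and 9. Of these 424 calls, 417 had 0 endosperm counts and 224 had counts in no other library, and their median was 0.0200 of the median paternal level. Only 6 reached 0.1 of it, and 3 of these were in plant 8 besides the one above. Plant 8 also had 527 leaf counts and 3 endosperm counts on chromosome 7 from 177612122 to 177612130 (0.403), a site with counts in 18 libraries. Plant 3 had 484 leaf counts and 0 endosperm counts on chromosome 8 from 94830141 to 94830149 (0.266). Both were chosen after their values were seen. Close sites were not merged here, and some calls overlap an insertion that the same plant carried in both tissues. In plant 3, the call on chromosome 5 from 185201292 to 185201300 (52 leaf counts), also counted as private, overlaps its new insertion from 185201293 to 185201301. On chromosome 3, calls of plants 3 and 7 start at 166753667 and 166753669, beside the paternal insertion that starts at 166753668. There were 2 endosperm-only calls, both in plant 2: the private site on chromosome 4, and the recurrent site on chromosome 1, which had 8 leaf counts.

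These leaf-only sites set the difference in insertions present. Leaf had 87, 135 and 171 insertions at the lowest, median and highest, against 60, 78 and 82 in endosperm, a difference of 60.3 ± 35.2 (SD, 7 of 7 plants, exact two-sided sign-flip permutation p = 0.0156, adjusted p = 0.0182). At matched depth it was 25.4 (exact p = 0.0469), with leaf higher in 6 of 7 plants. There plant 7 had 76 in leaf and 78 in endosperm, plant 9 had 81 and 80, and plant 1 had 78 and 71. With a minimum of 1000 CPM it was -0.143 (exact p = 1), a mean difference of under 1 insertion a plant.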

How the data were processed

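MuSeq2 amplifies sheared genomic DNA (mean 1000 bp) next to Mu ends by PCR, per the labels' protocols. The authors deposited raw counts for each insertion site in 64 libraries, and a list of 1058 insertions with 0 or 1 calls for plants and parents, per the file headers. The submitters' processing notes name Bowtie2. The genome build, the counting program, the use of molecular identifiers and the criteria of the list are not given in the sources used here. Libraries were grouped by title, and 0 per-sample columns were left unused.

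The members and the classes of site were chosen with earlier results of these data known. From the counts, CPM and, with a pseudocount of 1, log2(CPM + 1) were computed in Python 3.11.15. Presence needed 10 reads and 100 CPM. The 7 within-family tests were exact sign-flip permutations over plants, with Benjamini-Hochberg adjustment over the 7, and 3 family contrasts were adjusted among themselves. P-values measure the spread between kernels of 1 father. Site-level tests used edgeR 4.0.16 with the plant as block, with DESeq2 1.42.0 as an alternative. On simulated counts for the 82 sites, edgeR recovered 20 of 20 sites changed by 2 on the log2 scale, with 0 false calls. Sites called in the data differed by less: the largest was -0.77 among paternal and shared sites and -1.64 among unlisted ones. Recovery of changes of that size was not simulated. Pairing by plant number rests on the series text, which has both tissues from one kernel. In the counts, deviations of paired libraries from their tissue means correlated at 0.982 to 0.998, and with any other plant at most at 0.0454. Intervals and floors (3 counts) cover counting error only.

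Sites named were the paternal insertions beside a change of state, the highest new insertion and the highest private sites of each plant, and the 5 lowest p in each direction of the edgeR test. Other named sites were chosen after their values were seen. No genome sequence or annotation of the files' build was at hand, so no sequences or gene names are given. Alternatives covered presence minimums, depth, pseudocount, scaling, filter, merging of close sites and leaving out plants.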

Additional observations from a re-analysis of the deposited data

How the results depend on the processing

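The transmitted paternal insertions, their 41 changes of state and the 0 differences between tissues were identical at minimums of 3 reads or 1000 CPM. The first 2 were also identical when read from the list or from endosperm. Agreement with the list is not independent support, because the sites were taken from it. At 1000 CPM the leaf excess of insertions present turned to -0.143, and new minus paternal levels were -0.354 in leaf and -0.395 in endosperm (exact p = 0.0625 for both). With listed new insertions alone, which leaves out the recurrent unlisted sites, these were -0.217 and -0.207. The excess of private leaf sites was 13.3 with 10 or more reads (exact p = 0.0625). The number of sites called by edgeR was 28 of 82, 1 of 125876 with no filter on low counts, 8 with no replicate block and 13 to 29 when 1 plant was left out. The cause of these changes was not tested. Without the replicate block the other mean tissue differences (60.3 insertions, 14.6 points, 0.505 log2 and 100.7 sites) cannot change, as pairing does not enter a mean. The exact permutation of tissue labels without pairing gave p = 0.000583, and 0.00233 for private sites. It has more label patterns than the paired test, so its p-values can be smaller for that reason alone. Leaving out any 1 plant changed no direction of the 7 within-family results and no side of 0.05. Where all 7 plants share a sign, that outcome is fixed in advance. The sign-flip permutation p is then always 0.03125, the smallest that 6 plants can give, so it adds no information. Low totals limit the endosperm of plants 7 and 9 most.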

Other observations

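Values of single plants set apart from their siblings were looked for in 14 sets of 7 plants, and 0 were flagged. The threshold of this search is not given here, so the result does not mean that siblings were alike. Plant 9, for example, carried 80.4% of the paternal insertions.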
